A study of Arabidopsis thaliana with 8 samples.

Results

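Small heat shock proteins are chaperones that bind unfolding proteins and hold them in a form that other chaperones can refold. In plants they form classes that sit in the cytosol, the nucleus and the organelles, and most of their genes are silent in unstressed leaves and switched on by heat and by oxidative stress. Bound clients are handed to the HSP70 and HSP100 machines, and HSP70 itself works with co-chaperones such as the Hop proteins and Fes1A. The genes described here are AT1G53540 and AT2G29500, which encode cytosolic class I members, and AT5G51440, which encodes a mitochondrial member. These 3 genes were picked with their signals on these arrays known, by a choice that names no contrast, out of 13286 genes that a single-gene probe set reads on the array.

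The samples are Arabidopsis thaliana rosette leaves of the Columbia background on Affymetrix ATH1 arrays, with 2 arrays for each of 4 lines. The lines are flu plants that also overexpress the thylakoidal ascorbate peroxidase (flu tAPX), the flu mutant with the insertion SAIL_136_E05 (flu), the overexpressor in plants with FLU (line 14/2, here tAPX) and the wild type (WT). FLU limits the synthesis of chlorophyll precursors, and mutant plants pile up protochlorophyllide in darkness, which gives singlet oxygen once light returns. The ascorbate peroxidase removes hydrogen peroxide at the photosynthetic membrane. All plants were 3 weeks old, had spent 8 h in the dark and then 2 h in light, so every line shares this shift and no array comes from before it. A single mutant allele and a single transgenic line stand for each genotype, and the labels do not name the promoter of the transgene. Each array received RNA pooled over 3 of the 6 experiments, with at least 10 plants per line in each, so the spread between arrays is that of pools. The free-text descriptions of some samples name the Landsberg accession, another genotype or another harvest time, and the titles, source names and genotype entries were followed.

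The 8 arrays had median signals of 153 to 166, and the middle 96% of signals averaged 500.0 on each, the scale that MAS5 gives an array. TAPX, the gene of the overexpressed enzyme, read 22703 and 23222 in flu tAPX, 1656 and 1729 in flu, 22960 and 22043 in tAPX and 2558 and 3115 in WT, as the labels say. RCA, the Rubisco activase gene and 1 of 14 mesophyll markers that could be read, was between 24891 and 31736 on every array, and EXPA7, a root hair expansin, stayed below the 40th percentile of every array (5.05 to 90.2). The guard cell regulator FMA lay between 238 and 380.5 in all lines. AT1G22690, the other readable gene of the guard cell list, read 1840 and 494 in flu tAPX, 1515 and 967 in flu, 1599 and 1768 in tAPX and 1439 and 886 in WT, and was called in no comparison. No marker of flowers, seeds, phloem or epidermis from the lists had a single-gene probe set. The ratio of the 3′ to the 5′ actin control set, a sign of RNA integrity, was 2.58 to 2.87. In whole leaves, more RNA per cell and more cells that make a transcript cannot be told apart.

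Of the cytosolic genes, AT1G53540 was dim in plants with FLU and bright in both flu lines. Its signal was 4898 and 1633 in flu tAPX, 4442 and 1981 in flu, 27.9 and 78.8 in tAPX and 12.7 and 64.9 in WT. Every flu tAPX and flu array lay above every tAPX and WT array, while flu tAPX overlapped flu and tAPX overlapped WT. The share of all probe sets with the flu lines apart in this way was not counted, for this gene or those below. On the 4 arrays with FLU it stood below the 40th percentile of its array, so the gene passed the filter on low values solely through the flu lines.

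AT2G29500, the other class I gene, read 10129 and 4447 in flu tAPX, 10073 and 5707 in flu, 102 and 149 in tAPX and 143 and 93.5 in WT. The lines again fell into 2 separate sets by the FLU gene, with overlap inside each set. In flu tAPX and flu its percentile rank on the array was 97.0 to 99.1, against 41.4 to 49.3 in tAPX and WT.

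The mitochondrial gene AT5G51440 gave 8308 and 7129 in flu tAPX, 7373 and 6347 in flu, 85.9 and 85.6 in tAPX and 175 and 138 in WT. It differed from the cytosolic pair in the plants with FLU, where both tAPX arrays lay below both WT arrays. Its flu tAPX and flu arrays overlapped.

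**Figure D1:**
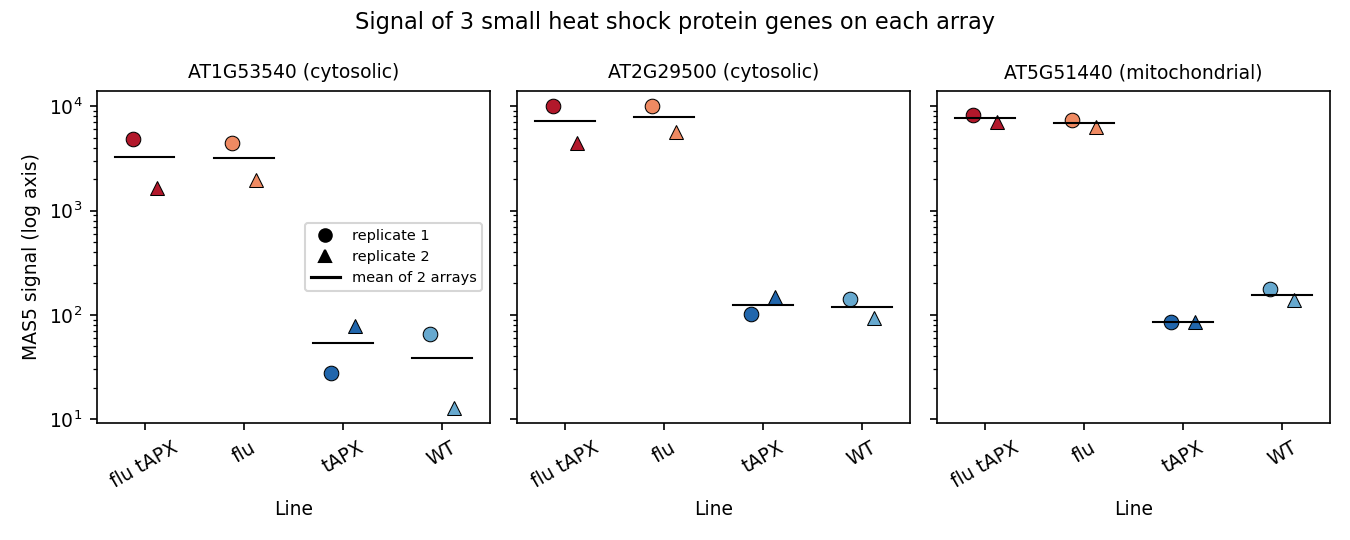
MAS5 signal (log axis) of AT1G53540, AT2G29500 and AT5G51440 in the 4 lines; circles are replicate 1, triangles replicate 2 and bars the mean of 2 arrays. The flu tAPX and flu arrays lie between 1633 and 10129 in all 3 panels, above the tAPX and WT arrays at 12.7 to 175.

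The order of the 4 lines was not the same for all 3 genes. For AT1G53540 the means were 3266 ± 2309 in flu tAPX, 3211 ± 1740 in flu, 53.3 ± 36.0 in tAPX and 38.8 ± 36.9 in WT (SD, n = 2). AT2G29500 averaged 7288 ± 4018 in flu tAPX, 7890 ± 3087 in flu, 125 ± 33.4 in tAPX and 118 ± 35.3 in WT. In both genes the lines next to each other within a set differed by less than their SD. AT5G51440 averaged 7718 ± 834 in flu tAPX, 6860 ± 726 in flu, 85.8 ± 0.236 in tAPX and 156 ± 25.8 in WT, so WT stood above tAPX by more than either SD. The flu tAPX and flu means of this gene stood in a ratio of 1.13, a difference just above either SD, and their arrays overlapped.

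The response to flu can be read in plants with and without the transgene. In flu against WT, taken here as the contrast behind the choice of these genes, the ratio of mean signals was 82.9 for AT1G53540, 66.6 for AT2G29500 and 43.8 for AT5G51440. On the scale of log2(signal + 16), which understates the change of dim genes, these were differences of 5.95 ± 0.63, 5.85 ± 0.39 and 5.32 ± 0.18 (SE of the fit), in places 6, 10 and 22 from the top among 14947 probe sets. They are given as a description with no test. Leaving out WT replicate 1 or 2 moved AT1G53540 to 6.70 or 5.21. Over all probe sets, limma called 11.4% higher and 12.5% lower in flu at an adjusted p under 0.05, and the median log2 change was -0.20. With the arrays scaled on their poly-A spike-in controls, 69.0% of the calls were higher, against 47.6% with the deposited scaling.

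The arrays of flu tAPX and tAPX take no part in that contrast, though their results too were known when the genes were named, and if they served in the choice the tests here are no more than a description. On these arrays 15.0% of all probe sets were called higher and 18.5% lower (median log2 change -0.16, or -0.75 after poly-A scaling, with which 15.6% of calls were higher against 44.7% as deposited). AT2G29500 rose by 5.59 ± 0.39 on the log2 scale (adjusted p = 3.86e-06 in limma, n = 2 each), a ratio of mean signals of 58.2. The rise of AT5G51440 was 6.24 ± 0.18 (adjusted p = 9.45e-08 in limma), a ratio of 90.0, in place 8 of 14947 probe sets. AT1G53540 was 5.46 ± 0.63 higher, a ratio of 61.2. Because it entered the filtered fit only through the flu lines, its p is given from the limma fit with no filter, where the adjusted p was 1.86e-04. The cytosolic values rested in part on single arrays: without flu tAPX replicate 1 or 2, AT1G53540 stood at 4.68 or 6.25 and AT2G29500 at 5.00 or 6.19.

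Whether the transgene changes these genes was asked in 3 ways. In flu tAPX against flu, none of the 3 passed (0.00669% of all probe sets did, TAPX alone). The log2 difference was -0.07 for AT1G53540 (95% interval -1.48 to 1.34), -0.18 for AT2G29500 (-1.05 to 0.70) and 0.17 for AT5G51440 (-0.24 to 0.58), with adjusted p-values of 0.994, 0.967 and 0.915 in limma. AT1G53540 was in the filtered fit only through the flu lines, and with no filter its adjusted p was 0.992 in limma. The intervals are wide for the cytosolic pair. They leave room for a difference of more than 2-fold in either direction for AT1G53540.

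In tAPX against WT, again 0.00669% of all probe sets were called, and none of the 3 genes was among them. AT1G53540 differed by 0.42 (95% interval -0.99 to 1.83) and AT2G29500 by 0.08 (-0.80 to 0.96), with adjusted p-values of 0.980 and 0.996 in limma. With no filter the adjusted p of AT1G53540 was 0.976 in limma. AT5G51440 was at -0.75 (-1.16 to -0.34), with an unadjusted p of 0.00222 in limma and an adjusted p of 0.980. Both of its tAPX arrays lay under both WT arrays, which was true of 26.7% of all tested probe sets.

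The interaction sets the response to flu with the transgene against the response without it. limma called 0% of the probe sets for it (1031 had an unadjusted p under 0.05). It was -0.49 ± 0.89 for AT1G53540, -0.25 ± 0.56 for AT2G29500 and 0.92 ± 0.26 for AT5G51440, with adjusted p-values of 0.925, 0.939 and 0.719. With no filter the adjusted p of AT1G53540 was 0.927 in limma. The value of AT5G51440 had an unadjusted p of 0.00540 in limma and a 95% interval of 0.34 to 1.50, and 3.97% of all probe sets had a higher one. Under poly-A scaling it was 0.27. WT or flu arrays, taken as those of the choice, enter each of these comparisons.

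**Figure D2:**
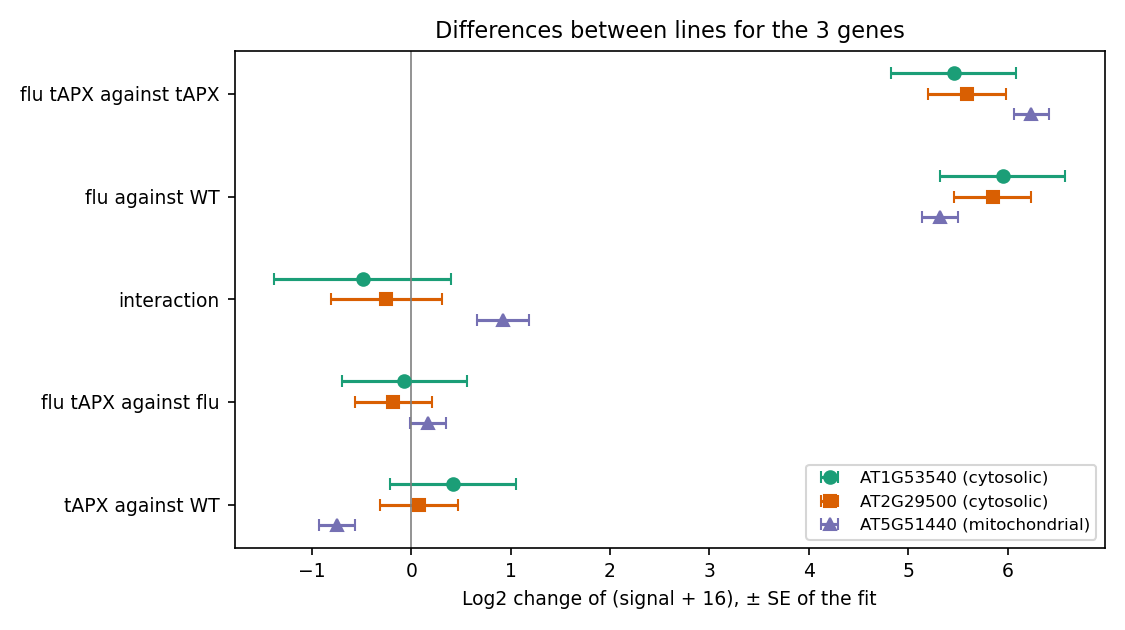
Log2 change of signal + 16 (x axis, ± SE of the fit over 8 arrays) for AT1G53540, AT2G29500 and AT5G51440 in each comparison (y axis). Both responses to flu lie between 5.32 and 6.24, and the comparisons that bear on the transgene lie between -0.75 and 0.92.

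The rest of the family did not move as one. Besides these 3, the list of 19 small heat shock protein genes held 8 with a single-gene probe set, of which 6 passed the filter on low values. Of those 6, 2 were higher and none lower in flu tAPX against tAPX, and 1 was higher and none lower in flu against WT, where 15.0% and 11.4% of all probe sets were higher. Their median log2 change was 0.69 in flu tAPX and 1.05 in flu, against -0.16 and -0.20 over all probe sets. AT1G52560 was among the 6 only through 1 flu tAPX and 1 flu array above the filter.

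AT1G54050, a class III gene whose protein enters the nucleus, rose in both. It read 5749 and 1500 in flu tAPX, 4247 and 2149 in flu, 409 and 507 in tAPX and 178 and 281 in WT. The log2 change was 2.65 ± 0.53 in flu tAPX against tAPX (adjusted p = 0.00378 in limma) and 3.66 ± 0.53 in flu against WT (adjusted p = 8.22e-04 in limma). Every array of the flu lines was above every array with FLU, and without flu tAPX replicate 1 or 2 the first change was 1.69 or 3.61.

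The peroxisomal gene AT5G37670 read 501 and 175 in flu tAPX, 331 and 274 in flu, 124 and 126 in tAPX and 126 and 129 in WT. It was called in flu tAPX against tAPX (log2 1.16 ± 0.40, adjusted p = 0.0462 in limma) and not in flu against WT (1.14 ± 0.40, adjusted p = 0.0610). The first call was lost in 12 of 17 alternatives, with 0.44 left without flu tAPX replicate 1, and the second was gained in 5.

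AT1G52560, another mitochondrial gene, read 207 and 36.3 in flu tAPX, 115 and 84.2 in flu, 6.33 and 4.82 in tAPX and 58.9 and 6.87 in WT. Its log2 values of 2.32 ± 0.82 in flu tAPX against tAPX and 1.47 ± 0.82 in flu against WT did not pass (adjusted p = 0.0522 and 0.221 in limma), although the first passed in 5 alternatives. With no filter the adjusted p-values were 0.0521 and 0.244.

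The remaining family members did not pass in either response with all arrays and the deposited scaling. AT4G21870 had log2 values of -0.21 ± 0.33 in flu tAPX against tAPX and 0.95 ± 0.33 in flu against WT (adjusted p = 0.661 and 0.0630 in limma), and the second passed in 3 alternatives (adjusted p = 0.0134 to 0.0365). AT2G19310 had -0.15 ± 0.48 and 0.45 ± 0.48, and without flu tAPX replicate 1 the first was -1.07 and called lower (adjusted p = 0.0171). AT5G54660 had 0.22 ± 0.32 and 0.10 ± 0.32. AT4G21870 read 329.7 and 157 in flu tAPX, 219 and 235 in flu, 228 and 312 in tAPX and 118 and 103 in WT, so tAPX stood near the flu lines and WT below them, with log2 1.17 ± 0.33 in tAPX against WT (adjusted p = 0.980).

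Below the filter were AT4G10250, which encodes a member of the endoplasmic reticulum, and AT5G47600. AT4G10250 read 45.9 and 50.5 in flu tAPX, 59.3 and 54.7 in flu, 10.8 and 11.6 in tAPX and 14.3 and 7.54 in WT. Its arrays separated by the FLU gene as those of the 3 main genes did, at signals in the dim part of every array. With no filter its log2 change was 1.24 ± 0.41 in flu tAPX against tAPX and 1.45 ± 0.41 in flu against WT (adjusted p = 0.0594 and 0.0409 in limma). AT5G47600 was between 6.14 and 60.8 on all arrays, with no separation.

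Among the ATP-driven chaperones that take over from small heat shock proteins, 2 of 12 listed genes could be read and both rose in both responses (15.0% and 11.4% of all probe sets were higher). Hsp70-2 (AT5G02490), a cytosolic HSP70, had 6557 and 7641 in flu tAPX, 5735 and 5972 in flu, 1167 and 1016 in tAPX and 1328 and 1461 in WT. Its log2 change was 2.68 ± 0.16 in flu tAPX against tAPX and 2.06 ± 0.16 in flu against WT (adjusted p = 1.26e-06 and 1.12e-05 in limma). AT3G09440, a further cytosolic HSP70, rose by 1.36 ± 0.17 and 0.95 ± 0.17 (adjusted p = 2.10e-04 and 0.00294 in limma). AT3G09440 was 0.73 under poly-A scaling in flu tAPX against tAPX and still passed.

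Co-chaperones and heat-induced partners had 8 of 17 genes read, and 5 rose in each response with none lower (median log2 change 1.19 in flu tAPX and 0.95 in flu), against 15.0% of all probe sets higher in flu tAPX and 11.4% in flu. After poly-A scaling 2 of them, Hop1 (-0.95, adjusted p = 0.0114) and AT4G02450 (-0.79, adjusted p = 0.0337), were called lower in flu tAPX against tAPX. Hop3 (AT4G12400), which links HSP70 to HSP90, came nearest in size to the class I genes. It read 3021 and 2201 in flu tAPX, 2943 and 1437 in flu, 41.9 and 59.5 in tAPX and 139 and 20.7 in WT, a log2 change of 5.29 ± 0.57 in flu tAPX against tAPX and 4.78 ± 0.57 in flu against WT (adjusted p = 1.09e-04 and 3.05e-04 in limma with no filter). With the filter it was tested only through the flu lines, as no tAPX array and 1 WT array lay above it. Without WT replicate 1 or 2 the second value was 5.82 or 3.74. The other Hop genes had smaller values. Hop2 rose by 1.15 ± 0.24 and 0.93 ± 0.24 (adjusted p = 0.00428 and 0.0179), while Hop1 had values of -0.35 ± 0.19 and -0.46 ± 0.19 that did not pass with the deposited scaling (adjusted p = 0.191 and 0.106).

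AT5G48570, an immunophilin co-chaperone of HSP90 also known as ROF2, rose by 3.94 ± 0.21 in flu tAPX against tAPX and 3.43 ± 0.21 in flu against WT (adjusted p = 6.35e-07 and 2.35e-06 in limma). Fes1A (AT3G09350), a partner that protects HSP70 in the cytosol, read 9931 and 8804 in flu tAPX, 8412 and 8270 in flu, 792 and 841 in tAPX and 924 and 995 in WT. It rose by 3.49 ± 0.15 and 3.10 ± 0.15 (adjusted p = 2.46e-07 and 6.51e-07 in limma). BOB1, a NudC-domain chaperone, rose by 1.23 ± 0.21 and 0.73 ± 0.21 (adjusted p = 0.00139 and 0.0294). In flu against WT the calls of Hop2 and BOB1 were lost in 4 and 5 alternatives, down to 0.57 and 0.53 without flu replicate 1, and poly-A scaling ended both calls in flu tAPX against tAPX (0.52 and 0.61).

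HSA32, which prolongs acquired heat tolerance, had 1.15 ± 0.42 and 0.97 ± 0.42 and did not pass (adjusted p = 0.0597 and 0.121 in limma). The first passed with a replicate block (1.15, adjusted p = 0.0239) and in 3 other alternatives, and the second passed without flu replicate 2 (1.58, adjusted p = 0.0343). The HSP90 co-chaperone p23 gene AT4G02450 had -0.17 ± 0.20 and -0.31 ± 0.20 (adjusted p = 0.553 and 0.293). In tAPX against WT, in flu tAPX against flu and in the interaction none of the HSP70 and co-chaperone genes was called. None of the 21 heat shock factors and none of the 20 organelle chaperones of the lists had a single-gene probe set, so the regulators of these genes are not analysed here.

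AT5G51440 is also known as one of the genes that plants switch on when mitochondria fail, and other such genes were read beside it. Of 10 listed, 4 had a single-gene probe set, 3 passed the filter and 2 rose in each response, where 15.0% of all probe sets were higher in flu tAPX and 11.4% in flu. AT2G21640, a mitochondrial protein induced by oxidative stress, read 3460 and 897 in flu tAPX, 3407 and 1939 in flu, 88.6 and 109.5 in tAPX and 98.2 and 76.0 in WT. Its log2 change was 3.96 ± 0.51 in flu tAPX against tAPX and 4.66 ± 0.51 in flu against WT (adjusted p = 2.51e-04 and 1.15e-04 in limma), the first being 2.99 or 4.92 without flu tAPX replicate 1 or 2. NDB2, an alternative NADH dehydrogenase, rose by 2.76 ± 0.16 and 2.45 ± 0.16 (adjusted p = 8.95e-07 and 2.97e-06). AT5G09570, a twin-cysteine protein, had 0.86 ± 0.36 and 0.23 ± 0.36 and did not pass (adjusted p = 0.0959 and 0.681 in limma). The first passed with no variance trend (adjusted p = 0.0280). No tAPX array and 1 WT array lay above the filter, so these filtered fits held it only through the flu lines. With no filter the adjusted p-values were 0.169 in flu tAPX against tAPX and 0.774 in flu against WT in limma. NDB4 (AT2G20800), below the filter on every array, read 8.08 and 11.1 in flu tAPX, 59.0 and 37.9 in flu, 4.07 and 4.91 in tAPX and 16.3 and 9.14 in WT. Its highest arrays were those of flu.

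**Figure D3:**
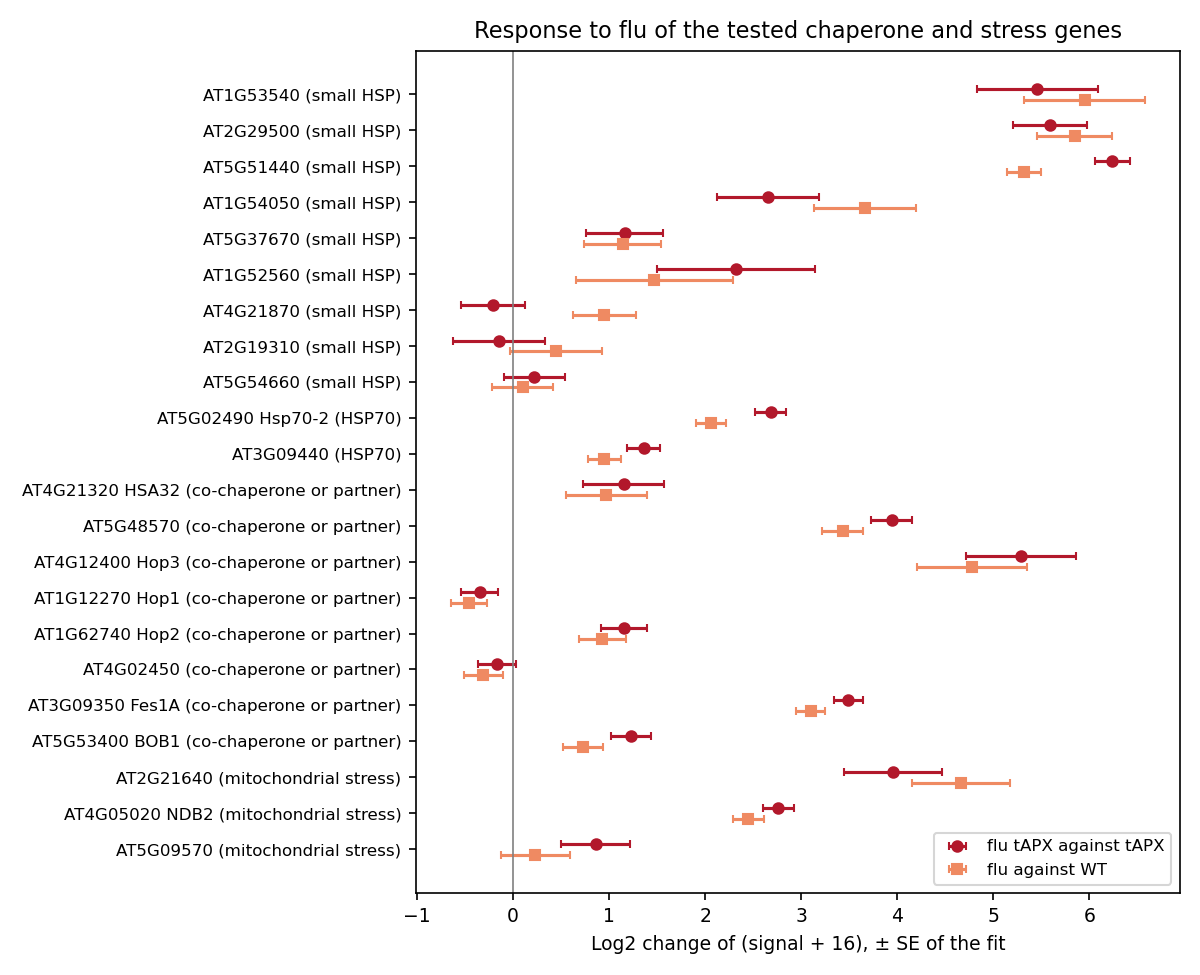
Log2 change of signal + 16 (x axis, ± SE of the fit over 8 arrays) in flu tAPX against tAPX (circles) and flu against WT (squares) for each tested gene of the lists (y axis). AT1G53540, AT2G29500 and AT5G51440 lie at 5.32 to 6.24, Hop3 at 4.78 and 5.29, and 6 genes of the same family lie between -0.21 and 3.66.

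Replicate spread set the 3 genes apart from each other. Within flu tAPX the higher array exceeded the lower by 3.00 times for AT1G53540, 2.28 times for AT2G29500 and 1.17 times for AT5G51440. Within flu these ratios were 2.24, 1.77 and 1.16. In each case replicate 1 was the higher array. Other genes were then compared, a choice made after the values were seen. In 5 of the 6 other tested family members replicate 1 was above replicate 2 in both flu tAPX and flu, against 27.6% of all tested probe sets, and in 3 of 6 it was so by at least 1.5 times in both, against 5.04%. AT4G21870 was the exception, at 2.10 in flu tAPX and 0.933 in flu. AT1G52560, 1 of the 5, passed the filter only through replicate 1 of flu tAPX (207) and of flu (115). Its replicate 2 signals (36.3 and 84.2) lay below the filter, so its place in this count follows from the filter. Replicate 1 was also above replicate 2 in both lines in 6 of the 8 co-chaperone and partner genes, such as HSA32 (1.78 in flu tAPX and 2.48 in flu) and Hop3 (1.37 and 2.05), though by at least 1.5 times in both in 1 of 8. AT2G21640 had 3.86 and 1.76, and the guard cell gene AT1G22690 was higher in replicate 1 in both lines as well. The HSP70 genes had ratios of 0.858 and 0.997 in flu tAPX and 0.960 and 0.939 in flu, and Fes1A had 1.13 and 1.02. The labels do not say whether arrays with the same number share experiments, and the part of a shared batch was not tested.

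**Figure D4:**
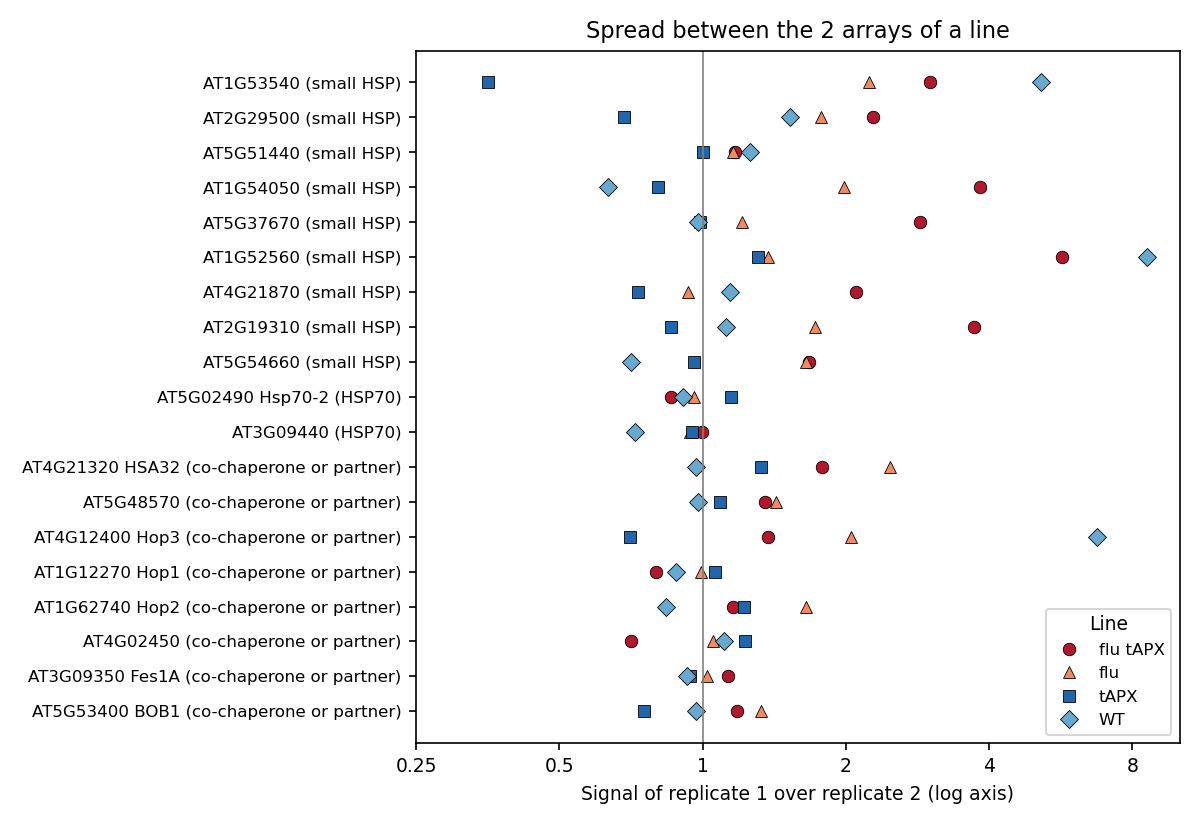
Signal of replicate 1 over replicate 2 (x axis, log axis) within each line for the tested small heat shock protein, HSP70 and co-chaperone genes (y axis); each point is 1 line. AT1G53540 and AT2G29500 lie at 1.77 to 3.00 in flu tAPX and flu, and AT5G51440 at 1.16 and 1.17.

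Genes with the most similar course over the 8 arrays were found among 8112 tested single-gene probe sets. Likeness was the root mean square difference of log2(signal + 16) values after each gene was centred on its own mean. This measure rewards an equal size of response, and the medians over all other genes were 3.06 for AT1G53540, 3.01 for AT2G29500 and 3.03 for AT5G51440. The nearest gene to AT1G53540 was AT2G29500, at 0.34 log2 units, followed by AT2G22880, a VQ-motif gene (0.53), Hop3 (0.56), the DnaJ-domain gene AT1G71000 (0.62) and AT5G51440 (0.72). AT2G29500 in turn had AT2G22880 (0.21), AT1G53540 (0.34), the calmodulin-like gene CML38 (0.44), AT5G14730 (0.44) and AT5G51440 (0.45) beside it. In tAPX and WT, AT2G22880 read 5.54 to 8.80, AT1G71000 15.7 to 52.9, CML38 24.8 to 60.3 and AT5G14730 10.5 to 23.5. All of these signals lay below the filter, so these genes were candidates only through the flu lines. The 16 added to each signal shrinks differences among the lowest of them.

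Nearest to AT5G51440 were AT4G39670, a glycolipid transfer protein gene, at 0.20 log2 units and the glycosyltransferase gene UGT73B4 at 0.31. Then came AT2G22880 at 0.34, CML38 at 0.34 and AT5G14730 at 0.42, which were also among the 5 nearest to AT2G29500. UGT73B4 read 6.77 to 12.8 in tAPX and WT, so the limits given above for AT2G22880 apply to it too. AT2G29500 came in place 8 and AT1G53540 in place 23. AT4G39670 read 9302 and 8203 in flu tAPX, 7232 and 8350 in flu, 149.5 and 101 in tAPX and 201 and 186 in WT. Like AT5G51440 it was lower in tAPX than in WT, but it was picked for likeness over these same arrays. Both tAPX arrays lay below both WT arrays in 26.7% of all tested probe sets. The log2 value of AT4G39670 in tAPX against WT was -0.59, and its 2 responses to flu were 5.98 in flu tAPX against tAPX and 5.22 in flu against WT. These likenesses describe the 8 arrays and carry no test.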

How the data were processed

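RNA of rosette leaves was measured on 8 ATH1 arrays, 2 for each of 4 lines, with lines and replicate numbers taken from the sample titles. The deposited values are MAS5 signals, an intensity on a linear scale scaled on each array by the authors; the submitters' processing notes name MAS5, and its version and the genome build are not given in the sources used here. There are no detection calls. The 22810 probe sets include 64 controls, which were left out. The number of arrays limits the precision.

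Signals were turned into log2(signal + 16). Tests covered the 14947 probe sets that exceeded the array's own 40th percentile on 2 or more of the 8 arrays. One linear model of the 4 line means was fitted in limma 3.58.1 (R 4.3.3) with a mean-variance trend. Tests were two-sided with Benjamini-Hochberg adjustment over all tested probe sets and a threshold of 0.05. The fit was also run on simulated data with independent noise and fewer changed probe sets than either response to flu called here. That run does not gauge the error rates in these data.

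Genes came from the platform annotation, brought to current locus tags through the TAIR10.1 gene table: 13513 probe sets had 1 gene, 503 several and 8794 none listed, and genes were named from the first kind. The 3 probe sets bear no suffix of shared probes. Whether class I relatives hybridise to them was not tested. FLU has no such probe set and is not analysed here. Named genes were the 3 members, every readable gene of the chaperone and mitochondrial stress lists by the counts and values above, and the 5 nearest patterns per member. The members and the lists were chosen with earlier results of these data known. Alternatives changed the pseudocount, filter, scaling, variance trend, replicate block and arrays used.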

Additional observations from a re-analysis of the deposited data

How the results depend on the processing

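In 17 alternatives (16 for the interaction), the values of all 3 genes in flu tAPX against tAPX kept their direction and side of the threshold, which is no independent support since the genes were picked with these arrays known. In flu against WT, a pseudocount of 64 gave 4.93 for AT1G53540 and 4.97 for AT5G51440. Poly-A scaling, which puts the median log2 change of all probe sets at -0.75 in flu tAPX against tAPX and -0.56 in flu tAPX against flu, turned AT5G51440 in flu tAPX against flu to -0.42. It called 2153 probe sets in flu against WT (69.0% higher, against 47.6% as deposited), 8123 in flu tAPX against tAPX (15.6% against 44.7%), 5 in tAPX against WT, 580 in flu tAPX against flu and 429 for the interaction.

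With 1 array left out, the log2 value of AT1G53540 ran from -0.33 to 1.17 in tAPX against WT, -0.86 to 0.72 in flu tAPX against flu and -1.28 to 0.30 for the interaction. For AT2G29500 the ranges were -0.20 to 0.35, -0.77 to 0.42 and -0.84 to 0.34. Probe sets called numbered 1852 to 4663 in flu against WT (against 3570), 2825 to 5364 in flu tAPX against tAPX (against 5014), 1 to 72 in flu tAPX against flu and 0 to 185 for the interaction, the highest of the last 2 without flu tAPX replicate 1.

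Across probe sets, deviations of replicate 1 from the line mean correlated at 0.350 between flu and flu tAPX. Between the other pairs of lines the correlations were -0.079 to 0.191. The replicate numbers were not taken as pairs in the main fit. A replicate block gave 3963, 5521, 2, 1 and 0 calls in the 5 comparisons (flu against WT, flu tAPX against tAPX, tAPX against WT, flu tAPX against flu, interaction) and changed no call of the 3 genes; among the other listed genes it added AT1G52560 and HSA32 in flu tAPX against tAPX and AT5G37670 in flu against WT. The causes were not tested, except that leaving out an array leaves fewer samples. Without detection calls, the fold of AT1G53540 against its dim tAPX and WT signals is imprecise.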
